A study of Mus musculus with 4 samples.

Results

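The barcodes described here are the lymphocyte-like cells that remained among sorted mouse small intestinal epithelial cells. A barcode was a member when it had at least 1000 UMIs (unique molecular identifiers, each standing for 1 captured mRNA molecule), at least 500 detected genes and under 30% of its UMIs from mitochondrially encoded genes, and when at least 3 of 8 lymphocyte genes had a UMI. The 8 genes were Cd3g, Cd3e, Cd7, Gzma, Gzmb, Nkg7, Ptprc and Fcer1g. This gave 176 members among the 32872 barcodes that passed the same 3 filters. The members were chosen by their own expression values, so the levels of these 8 genes, and of the genes that go with them, are a description and carry no test. There were 4 libraries from 25-week-old mice, 2 from TrnA mutants and 2 from wild types. TrnA mutant 1 carried the G5081A point mutation in TrnA, the mitochondrial gene of the alanine transfer RNA, at a load of 77%, and TrnA mutant 2 carried it at 81%. Wild type 1 and wild type 2 had no mutation by their labels. Mutant 1 and wild type 1 form set A, counted with Cell Ranger 7.0.0 and with no sex stated, and mutant 2 and wild type 2 form set B, counted with Cell Ranger 7.1.0 and labelled male. The labels do not say that the libraries of a group come from separate animals, so the spread between them may be partly technical. The suspension was stained for CD45 (leukocytes), CD31 (endothelium), TER-119 (erythroid cells) and CD326 (epithelium) before sorting, and the labels do not give the gates. The series is titled for acute colitis, but no sample label states a colitis treatment.

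Intraepithelial lymphocytes sit between the epithelial cells of the gut and are mostly T cells with killing granules. Natural ones enter the epithelium early, carry a gamma-delta or alpha-beta T cell receptor, often have the CD8 alpha homodimer, and use FcεRIγ, the product of Fcer1g, as a signalling adaptor. Induced ones descend from conventional CD8 or CD4 T cells, carry an alpha-beta receptor and express surface proteins such as CD5 and CD6. Integrin alpha E (Itgae) binds E-cadherin on epithelial cells and keeps these lymphocytes in place.

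Granzymes A and B are the serine proteases of the killing granules, and Gzma was the most abundant of the 8 genes in the members. The RefSeq promoter windows (build GRCm38.p6, 250 bases before to 50 after the gene start, on the gene's strand) of both granzymes, of Cd3g, a chain of the receptor complex, and of Cd8a, the CD8 alpha chain, are shown because these genes carry the identity of the members and because Runx3, a transcription factor of the RUNX family, was among the genes that marked them. Capitals mark TGTGGT and its reverse complement ACCACA, a core of the RUNX motif, which was searched on both strands.
Gzma, chr13:113100932-113101231, minus strand: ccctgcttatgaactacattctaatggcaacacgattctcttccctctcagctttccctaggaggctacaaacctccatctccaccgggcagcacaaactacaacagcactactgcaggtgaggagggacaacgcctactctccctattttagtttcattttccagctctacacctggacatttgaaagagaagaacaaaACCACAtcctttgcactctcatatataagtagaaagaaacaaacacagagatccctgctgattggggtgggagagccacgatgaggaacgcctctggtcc
Gzmb, chr14:56262285-56262584, minus strand: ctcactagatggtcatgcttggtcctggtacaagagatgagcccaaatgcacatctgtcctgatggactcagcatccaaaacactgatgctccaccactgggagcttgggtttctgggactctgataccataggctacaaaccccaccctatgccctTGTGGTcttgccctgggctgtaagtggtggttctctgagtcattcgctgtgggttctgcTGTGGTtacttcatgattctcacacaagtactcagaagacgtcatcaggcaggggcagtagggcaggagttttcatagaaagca
Cd3g, chr9:44980382-44980681, minus strand: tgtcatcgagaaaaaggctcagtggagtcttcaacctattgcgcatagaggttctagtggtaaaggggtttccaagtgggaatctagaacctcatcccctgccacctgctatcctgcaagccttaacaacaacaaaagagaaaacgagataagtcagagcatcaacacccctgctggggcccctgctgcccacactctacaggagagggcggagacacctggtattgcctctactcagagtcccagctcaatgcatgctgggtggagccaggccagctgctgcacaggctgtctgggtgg
Cd8a, chr6:71373177-71373476, plus strand: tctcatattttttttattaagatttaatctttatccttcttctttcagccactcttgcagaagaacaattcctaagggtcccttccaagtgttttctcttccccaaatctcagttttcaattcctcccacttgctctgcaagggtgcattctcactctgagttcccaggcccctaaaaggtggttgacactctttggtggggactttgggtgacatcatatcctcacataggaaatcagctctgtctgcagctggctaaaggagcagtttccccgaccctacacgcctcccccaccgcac
The Gzma window held 1 match and the Gzmb window held 2, and the Cd3g and Cd8a windows held 0. Of all 32851 promoter windows of this length, 16.8% held at least 1 match. Of the 8 genes of the rule, 7 matched an entry in the promoter table. A match says only that these letters lie in the window.

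Members numbered 80 in mutant 1 and 43 in mutant 2, against 38 in wild type 1 and 15 in wild type 2. They stood apart from the other barcodes by the count of rule genes: 145 of the 176 had at least 6 of the 8. Just inside the threshold, 10 members had exactly 3 of the genes. Just outside it, 9 barcodes of mutant 1, 16 of mutant 2, 6 of wild type 1 and 3 of wild type 2 had exactly 2. Cd3g was detected in 171 members, Ptprc, which encodes CD45, in 159, Gzma in 154, Cd3e in 148, Nkg7, a granule membrane protein, in 146, Cd7 in 144, Gzmb in 128 and Fcer1g in 124. Among the other barcodes Cd3g was detected in 0.236% in mutant 1, 0.105% in mutant 2, 0.467% in wild type 1 and 0.0856% in wild type 2, although these were deeper. The median depth was 2018, 2763, 4271 and 3306 UMIs in the members in the same order, against 9884, 11080, 21360 and 11250 UMIs in the other barcodes. Gzma was the rule gene most often met outside the members, in 1.23%, 1.81%, 3.07% and 0.71% of the other barcodes in the same order.

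**Figure D1:**
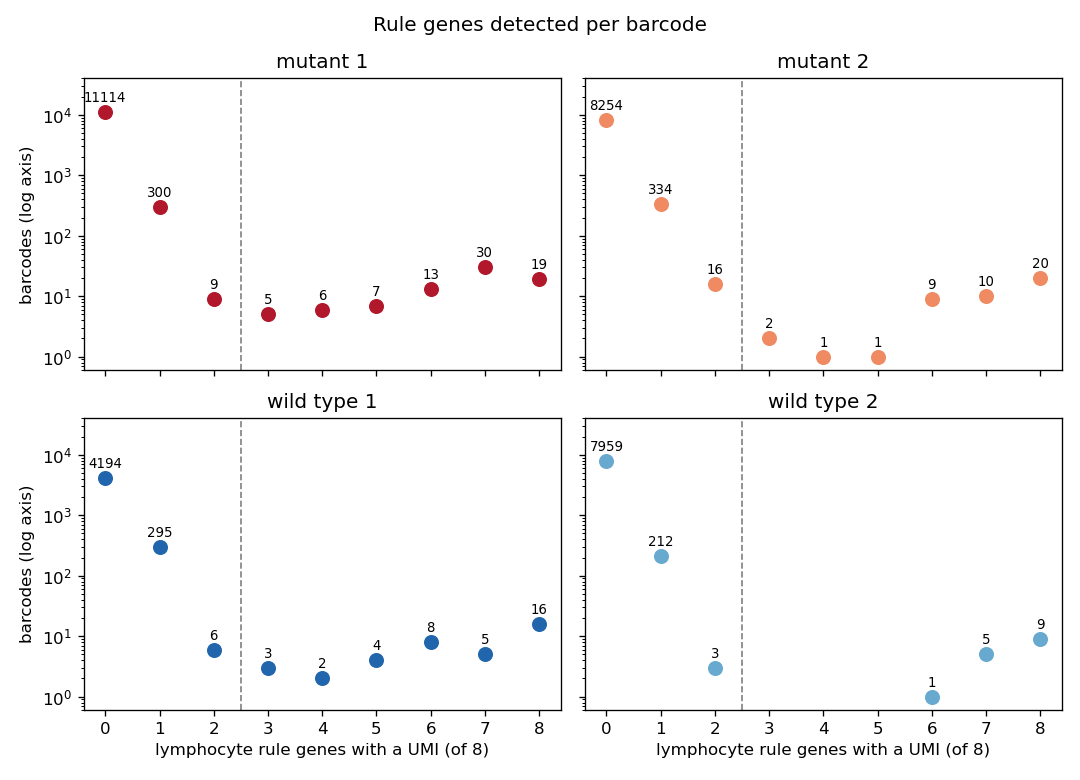
Number of barcodes (vertical, log axis, count printed above each point) by how many of the 8 rule genes they had a UMI of (horizontal), in 1 panel for each library. The dashed line is the threshold, and in all panels the counts are lowest around 3 to 5 genes and rise again towards 7 or 8; mutant 1 had 30 barcodes with 7 genes and 19 with 8, and wild type 1 had 5 with 7 and 16 with 8.

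A second list of 25 lymphocyte genes that the rule did not use described the same barcodes: 175 of the 176 members had at least 3 of them and the median member had 14. A CD3 gene (Cd3g or Cd3e) was detected in 172 members, and 2 members had neither a CD3 gene nor any receptor constant gene. Tuft cells, the chemosensory cells of the epithelium, also carry Ptprc, so their overlap with the members was counted. Of 490 barcodes with at least 3 tuft markers, 0 were members, although Ptprc was detected in 10.8% of the tuft barcodes of mutant 1, 28.3% of mutant 2, 12.8% of wild type 1 and 31.9% of wild type 2. No member barcode was shared by any pair of libraries, although pairs shared 26 to 60 barcode sequences in all.

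Epithelial RNA was present in the members, and its amount split them into 147 in which the UMIs of the 25 lymphocyte genes exceeded those of 16 general epithelial genes (lymphocyte-led) and 29 in which they did not (epithelium-led). Lymphocyte-led members numbered 61 in mutant 1 and 36 in mutant 2, against 37 in wild type 1 and 13 in wild type 2. Epithelium-led members numbered 19 in mutant 1 and 7 in mutant 2, against 1 in wild type 1 and 2 in wild type 2. The 29 epithelium-led members had a median of 17690 UMIs, a CD3 gene in 28 of them, at least 3 of 14 enterocyte genes in 28 and a doublet call in 17. The 147 lymphocyte-led members had a median of 2284 UMIs, a CD3 gene in 144, at least 3 enterocyte genes in 39 and a doublet call in 4. Paneth cell RNA, with lysozyme and defensins, reached all of them: at least 3 of 9 Paneth genes were detected in 147 of the 147 lymphocyte-led members, and at least 3 of 8 goblet genes in 109. In 9 members the ratio of the UMI sums was within a factor of 2 of equality. Lymphocyte-led members held 116509 of 465203 member UMIs in mutant 1 and 101012 of 206240 in mutant 2, against 154774 of 186423 in wild type 1 and 47086 of 128173 in wild type 2. Because the share from epithelium-led members differed this much between libraries, levels below are CPM, the UMIs of a gene scaled to 1 common total, in the summed lymphocyte-led members unless stated otherwise. The kit reads the 3' end of each mRNA, so a CPM value is not divided by gene length.

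**Figure D2:**
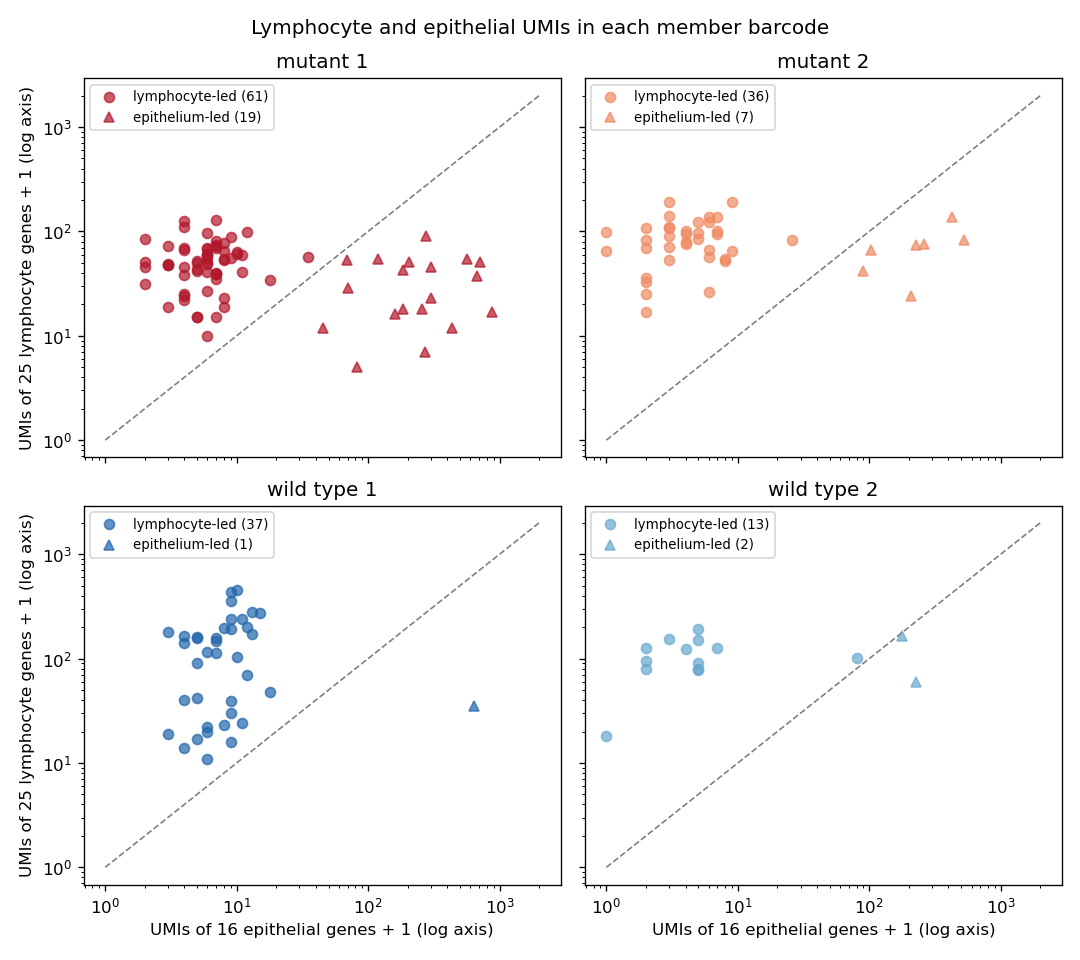
UMIs of 25 lymphocyte genes (vertical) against UMIs of 16 epithelial genes (horizontal), both with 1 added and on log axes, for each member in 1 panel for each library. Circles are the 147 lymphocyte-led members and triangles the 29 epithelium-led ones; the dashed line marks equal sums, and most triangles lie in the panel of mutant 1 (19 of 29).

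Granzymes A and B, both genes of the rule, had the highest levels among the granule genes. Gzma stood at 16797 CPM in mutant 1 and 27868 CPM in mutant 2, against 24623 CPM in wild type 1 and 22809 CPM in wild type 2. Gzmb stood at 3922 and 5782 CPM in mutants 1 and 2, against 2268 and 3993 CPM in wild types 1 and 2. The groups overlapped for both granzymes. Srgn, the proteoglycan core that packs granule contents, stood at 936 and 1267 CPM in the mutants, against 1228 and 1041 CPM in the wild types. Perforin (Prf1), which opens the target membrane, was low, at 51.5 and 148 CPM in the mutants, against 77.5 and 85.0 CPM in the wild types. Gzmk had 24 UMIs and Gzmc 3 UMIs over all lymphocyte-led members. In the other barcodes Gzma was at 1.26 and 1.44 CPM in the mutants and at 1.48 and 0.568 CPM in the wild types.

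Secreted factors were dominated by the chemokine Ccl5, which draws T cells and other leukocytes and was detected in 165 members. It stood at 13862 CPM in mutant 1 and 18919 CPM in mutant 2, against 16437 CPM in wild type 1 and 18902 CPM in wild type 2. Ccl4, a related chemokine, stood at 532 CPM in mutant 1, above the 59.4, 90.5 and 170 CPM in mutant 2, wild type 1 and wild type 2. Xcl1, which attracts cross-presenting dendritic cells, was detected in 22 members. The effector cytokines were nearly absent: over all 176 members there were 8 UMIs of Ifng, 5 of Tnf, 1 of Il17a and 0 of Il22.

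Receptor components were present in all libraries. Cd3g stood at 3854 and 3762 CPM in mutants 1 and 2, against 3844 and 2740 CPM in wild types 1 and 2. Cd3d was at 558 and 802 CPM in the mutants, against 911 and 488 CPM in the wild types. Downstream of the receptor, the kinase gene Lck was detected in 111 members, and Skap1, an adaptor for integrin activation, in 149. The costimulatory and adhesion genes that conventional T cells carry were rare: Cd2 was detected in 3 members, Cd28 in 4, Thy1 in 7, Cd5 in 14 and Cd6 in 15.

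Coreceptor detection was almost entirely CD8 alpha. Cd8a was detected in 48 of 80 members of mutant 1 and 30 of 43 of mutant 2, against 30 of 38 of wild type 1 and 14 of 15 of wild type 2, or 122 of 176 in all. Cd8b1, the beta chain of the CD8 heterodimer, was detected in 5 members, all in the mutant libraries, with 9 UMIs in all. Of these, 4 UMIs lay in 1 member of mutant 2 that had no CD3 or receptor constant gene and is described with the markers of other leukocytes. Cd4 was detected in 7 members, 6 of them in the mutants. Mutants 1 and 2 held 80 and 43 of the 176 members, so these few detections do not set the genotypes apart. Cd8a lies at chr6:71373427-71379173 and Cd8b1 at chr6:71322788-71337494, both on the plus strand (mm10, GENCODE vM21).

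Residency genes accompanied the receptor. Itgae was detected in 143 members and stood at 893 and 792 CPM in the mutants, against 1492 and 807 CPM in the wild types. Its partner Itgb7 was detected in 73 members and the gut homing receptor gene Ccr9, whose ligand Ccl25 is made by the epithelium, in 58. Rgs1, a brake on chemokine receptor signalling, was detected in 111. Genes of recirculating T cells were close to nil over all 176 members: Ccr7 had 1 UMI, S1pr1 2, Klf2 3 and S1pr5 0. Tcf7 and Il7r, also of that list, were detected in 16 and 7 members.

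Genes of the natural killer type were part of the profile. Fcer1g stood at 1416 CPM in mutant 1 and 2990 CPM in mutant 2, against 2048 CPM in wild type 1 and 1826 CPM in wild type 2. Tyrobp, the DAP12 adaptor, stood at 189 CPM in mutant 1, below the 1238, 846 and 658 CPM of mutant 2, wild type 1 and wild type 2. Klrd1, which encodes CD94, was detected in 119 members, Cd244a in 101 and Cd160 in 59. Klrc1, whose NKG2A product pairs with CD94, had 1 UMI, and Ncr1, the marker of natural killer cells and group 1 innate lymphoid cells, had 6 UMIs in 1 member.

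Among transcription factors, Ikzf2 (Helios) was the most abundant of 17 genes listed, at 2326 and 2010 CPM in the mutants, against 2778 and 2506 CPM in the wild types. Runx3, which acts in CD8 T cells, was detected in 133 members, and Tox in 143. Tbx21, which encodes T-bet, was detected in 39. Zfp683 (Hobit), a factor of resident lymphocytes, and Foxp3, the factor of regulatory T cells, had 0 UMIs in all 176 members. The receptor subunit gene Il2rb, which serves interleukin 15 and interleukin 2, stood at 472 and 614 CPM in the mutants, against 523 and 680 CPM in the wild types, and Il2ra had 1 UMI. Among division genes, Mki67 had 13 UMIs and Top2a 15 in the lymphocyte-led members. The whole list of 14 summed to 1717 CPM in mutant 1 and 1129 CPM in mutant 2, against 1266 CPM in wild type 1 and 3079 CPM in wild type 2, and to 4786, 3341, 3781 and 3588 CPM in the other barcodes in the same order. At least 3 of the 14 were detected in 48 of the 147 lymphocyte-led members. A single alpha-beta class member of wild type 2, picked after its values were seen, had 12 of the 14 genes and 10327 of the 47086 UMIs of that library's lymphocyte-led members, and without it wild type 2 stood at 1007 CPM.

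**Figure D3:**
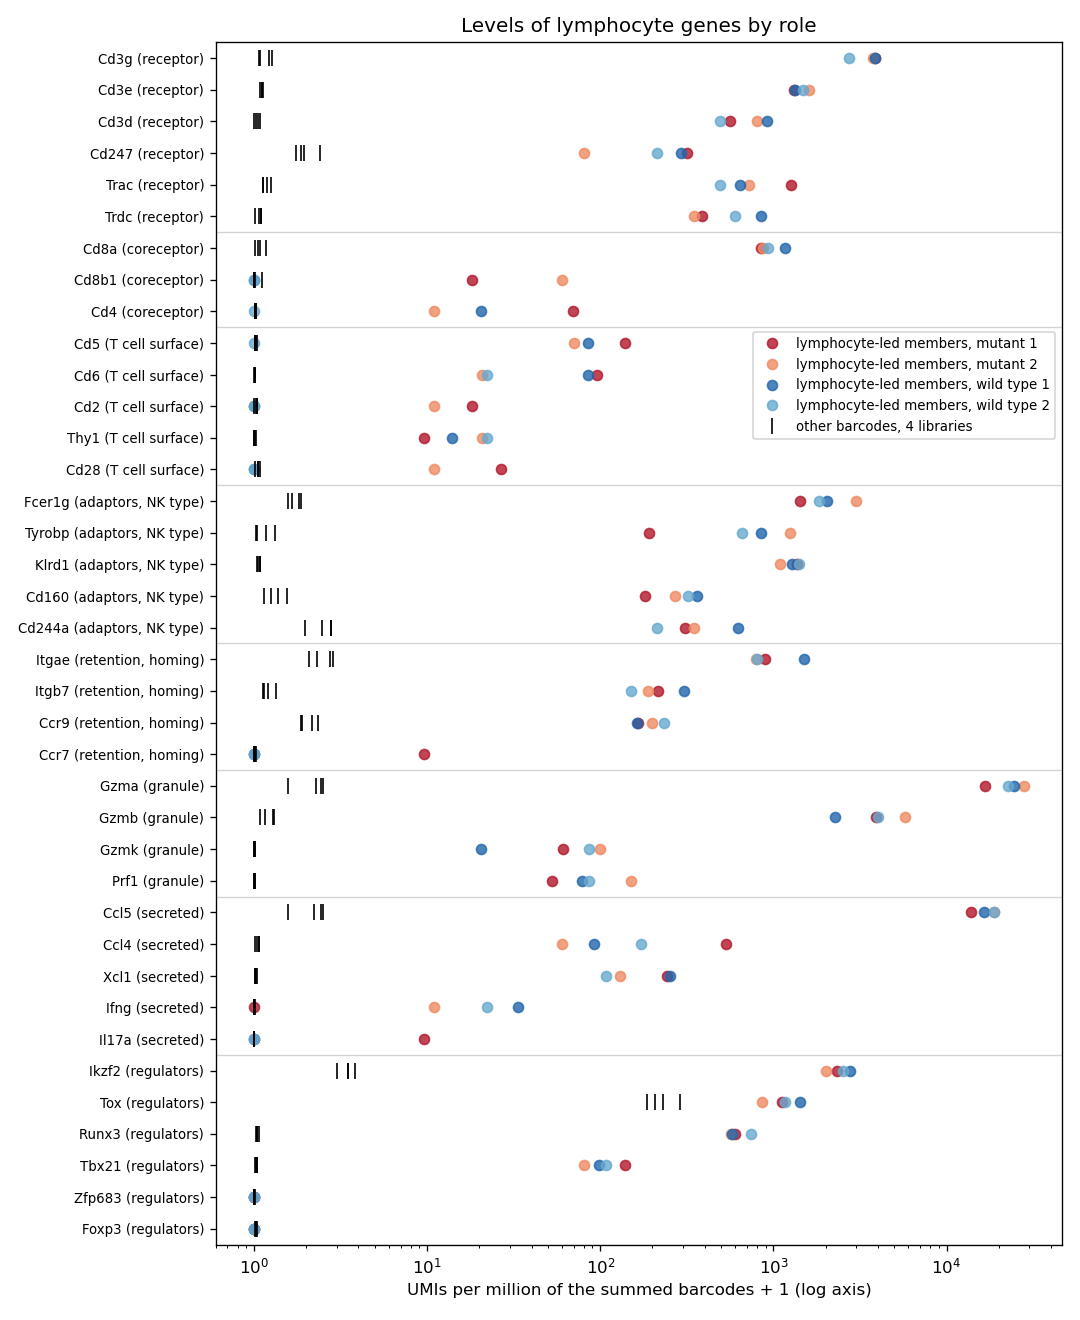
Levels of lymphocyte genes grouped by role (rows) in CPM plus 1 on a log axis. Coloured circles are the summed lymphocyte-led members of each library and black ticks the summed other barcodes of the 4 libraries; Gzma and Ccl5 lie furthest right, at 13862 to 27868 CPM, and Cd8b1, Cd4, Cd2, Thy1, Cd28, Ccr7, Zfp683 and Foxp3 lie among those furthest left.

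Outside the rule, the 25 genes that most exceeded the other barcodes in every library, given as a description, were led by Tcrg-C2, a gamma chain constant gene, with log2 ratios of 12.96 to 14.25 over the 4 libraries. They further included Klrd1, the granule cystatin Cst7, the inhibitory receptor gene Cd200r1, Runx3, Cd8a, Ccl5, Trgv2, Gm156, Cd48, Rgs1, Gimap4, Il2rb, Asb2, Ikzf3, Tcrg-C1, Cd3d, Stat4, Mir142hg, Cd200r4, Dock10, Fli1, Coro1a and Ikzf1. Most markers of other leukocytes were at or near nil over all members. All 6 neutrophil markers had 0 UMIs, as did Csf1r, C1qa, C1qb, C1qc and Adgre1 of macrophages, Cd79a and Ms4a1 of B cells, and Mcpt1, Mcpt2 and Ms4a2 of mast cells. The immunoglobulin gene Ighm was detected in 11 members and the integrin gene Itgax in 13. Kit, a mast and innate lymphoid cell marker that the other barcodes also carried at 27.5 to 33.8 CPM, was detected in 48 members. In 1 lymphocyte-led member of mutant 2, with 3573 UMIs and picked after its values were seen, 4 of 12 macrophage and dendritic cell markers were detected: Siglech, a lectin gene of plasmacytoid dendritic cells, with 5 UMIs, Itgax with 2, and Cd68 and Flt3 with 1 each. That member had 18 UMIs of Tyrobp, 4 of Cd8b1 and 0 of Cd3g, Cd3e and the receptor constant genes.

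The receptor constant genes sorted the members into classes. Trdc, the delta constant gene, lies at chr14:54142851-54148868 and Trac, the alpha constant gene, at chr14:54220521-54224206 on the same strand (mm10, GENCODE vM21). Trdc without Trac (gamma-delta class) was found in 25 members, Trac without Trdc (alpha-beta class) in 68, both in 50 and neither in 33. Tcrg-C1, a gamma chain constant gene, was detected in 18 of the 25 gamma-delta class members and in 20 of the 68 alpha-beta class members, and in 47 of the 50 members with both genes. The other gamma constant genes separated the classes less: Tcrg-C2 was detected in 16 of the 25 and 46 of the 68, and Tcrg-C4 in 16 and 34. The beta constant genes Trbc1 and Trbc2 were also detected in 7 and 11 of the 25 gamma-delta class members, so this class is not clean. Of the gamma variable genes, Trgv2 had the most UMIs, in 53 members, followed by Tcrg-V7 in 12 and Tcrg-V1 in 11, in a kit that reads the 3' end and so seldom reaches a variable segment.

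Cd5 and Cd6 divided along the same line. Neither gene was detected in any of the 75 members with Trdc, 0 of 75, which allows a share of members with a UMI of up to 4% at a floor of 3 counts and sets no limit on members that express these genes. In the alpha-beta class 15 of 68 members had Cd5 or Cd6, 10 of 36 in mutant 1 and 4 of 22 in mutant 2, against 1 of 5 in wild type 1 and 0 of 5 in wild type 2. The median depth was 3093 UMIs in members with Trdc and 2376 UMIs in the alpha-beta class. The 21 members with Cd5 or Cd6, a subset picked after its values were seen, were compared with the 155 members without either, as a description with no test. Fcer1g was detected in 1 of the 21, against 123 of the 155. Klrd1 was detected in 2 of the 21, against 117 of the 155, Tyrobp in 1 of the 21, against 68 of the 155, and Ikzf2 in 5 of the 21, against 139 of the 155. Cd4 or Cd8b1 was detected in 8 of the 21, against 4 of the 155. The granule and residency genes did not divide in this way: Gzma was detected in 18 of the 21, against 136 of the 155, Gzmb in 17, against 111, Ccl5 in 18, against 147, and Itgae in 16, against 127. Fcer1g, Gzma and Gzmb are genes of the rule, so a member without Fcer1g had to qualify through the other rule genes. The detection of these 3 genes is thus shaped in part by the selection, while Ccl5 and Itgae lie outside the rule. The 21 had a median of 1944 UMIs, against 2758 UMIs in the 155. Of the 21, 13 came from mutant 1, 5 from mutant 2, 2 from wild type 1 and 1 from wild type 2.

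Levels in the receptor classes were compared on UMIs summed per library and class with the library as a block (edgeR quasi-likelihood test, gamma-delta over alpha-beta). At an adjusted p under 0.05, 2 of 671 genes passed (0.298%), and both were the genes that define the classes, Trdc and Trac. Outside the receptor and rule genes 0 passed, 21 had an unadjusted p under 0.05, and DESeq2 also called 0. Cd8a had a log2 ratio of 0.01 (SE 0.44) and Ccl5 of 0.36 (SE 0.65), with edgeR adjusted p of 0.994 and 0.990. Ikzf2 had a log2 ratio of 0.64 (SE 0.38) and Klrd1 of 0.45 (SE 0.58), both with an edgeR adjusted p of 0.990. The classes were small, with gamma-delta sums of 32547, 20586, 29185 and 9570 UMIs in mutant 1, mutant 2, wild type 1 and wild type 2, so differences of the size of these standard errors were not detectable. With every member with Trdc counted as gamma-delta, 1 of 2651 genes passed (0.0377%), Trdc itself, and Tcrg-C1 had a log2 ratio of 2.49 (SE 0.33, edgeR adjusted p = 0.0641). Clec2h passed as 1 gene outside the receptor and rule genes when mutant 1 was left out, and Trac did not pass without mutant 2 or without wild type 1.

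The members were then compared by genotype, with few cells behind each value. Among the members with a class, the gamma-delta class made up 7 of 43 (16.3%, exact Clopper-Pearson 95% interval 6.81 to 30.7%) in mutant 1 and 5 of 27 (18.5%, 6.30 to 38.1%) in mutant 2, against 9 of 14 (64.3%, 35.1 to 87.2%) in wild type 1 and 4 of 9 (44.4%, 13.7 to 78.8%) in wild type 2. Both mutants lay below both wild types. The mean was 17.4% ± 1.58 in mutants and 54.4% ± 14.0 in wild types (SD, n = 2 each), a difference of -37.0 percentage points. Within set A it was -48.0 and within set B -25.9. An exact two-sided permutation test over libraries gave p = 0.333, the smallest p that 2 against 2 libraries allow. Counting every member with Trdc as gamma-delta gave 43.8% and 37.1% in mutants 1 and 2, against 83.3% and 64.3% in wild types 1 and 2. With Trbc1 and Trbc2, the beta constant genes, added to the alpha-beta definition, the share was 4 of 47 (8.51%) in mutant 1 and 1 of 29 (3.45%) in mutant 2, against 5 of 16 (31.3%) in wild type 1 and 1 of 7 (14.3%) in wild type 2, a smaller difference of -16.8 percentage points. In levels, Trdc stood at 386 and 346 CPM in the mutants, against 846 and 595 CPM in the wild types, with a log2 ratio of -0.91 (SE 0.36, edgeR adjusted p = 0.998). Trac stood at 1262 and 723 CPM in the mutants, against 640 and 488 CPM in the wild types, with a log2 ratio of 0.87 (SE 0.38, edgeR adjusted p = 0.998). Neither passed the test, and over all members, epithelium-led ones included, the log2 ratio of Trac was 0.03. Fewer cells of a class and less receptor RNA per cell cannot be told apart at this depth. The median depth of members moved with genotype, at 2018 UMIs in mutant 1 and 2763 UMIs in mutant 2, against 4271 UMIs in wild type 1 and 3306 UMIs in wild type 2. With every member thinned to 1000 UMIs the share was 7 of 38 and 4 of 20 in mutants 1 and 2. It was 9 of 17 and 4 of 6 in wild types 1 and 2, a difference of -40.6 percentage points. The members were still those chosen at full depth, epithelium-led ones included, and the part of depth in the difference was not tested.

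**Figure D4:**
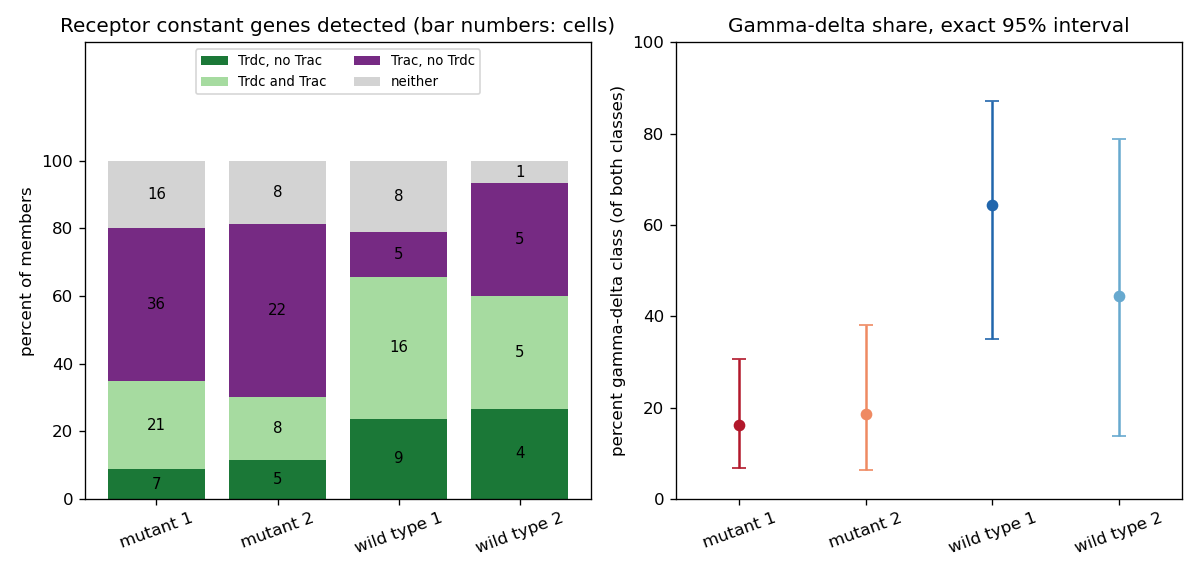
Left, percent of members in each library with Trdc only, both genes, Trac only or neither, with the number of cells printed in each bar segment. Right, the gamma-delta share of the gamma-delta and alpha-beta classes, with exact 95% intervals. Mutants 1 and 2 stand at 16.3% and 18.5%, below wild types 1 and 2 at 64.3% and 44.4%. The intervals cover counting error within each library only and do not compare the genotypes.

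The share of members among kept barcodes gave no direction by genotype. It was 0.696% (exact 95% interval 0.552 to 0.865%) in mutant 1 and 0.497% (0.360 to 0.669%) in mutant 2, against 0.838% (0.594 to 1.15%) in wild type 1 and 0.183% (0.103 to 0.302%) in wild type 2. The groups overlapped, with means of 0.596% ± 0.140 in mutants and 0.511% ± 0.463 in wild types (SD, n = 2 each). The difference was 0.0856 percentage points (exact two-sided permutation p = 1). Within set A it was -0.143 and within set B 0.314, so the sets had opposite signs. CD45 was among the stains of the sort, and the part of the sort in this share was not tested. The difference turned to -0.0142 with lymphocyte-led members only, to -0.0135 without mutant 1 and to -0.242 without wild type 2.

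Mitochondrially encoded mRNAs made up more of the summed members in the mutants. Their genes gave 5.11% of member UMIs in mutant 1 and 4.65% in mutant 2, against 2.07% in wild type 1 and 2.66% in wild type 2, a difference of 2.52 percentage points (exact two-sided permutation p = 0.333, the smallest possible). Within set A it was 3.04 and within set B 1.99. In the lymphocyte-led members the values were 3.75% and 4.54% in mutants 1 and 2, against 1.96% and 2.70% in wild types 1 and 2. Of 13 mitochondrial mRNAs, 11 were tested in those members, and 1 of them, mt-Nd4l, passed the filter on low values through the mutants alone. The other 10 were all higher in the mutant of both sets, with a median log2 ratio of 0.98 against 0.0066 over the 2247 genes that reached the filter's level in a library of each genotype. For 8 of the 10 both mutants lay above both wild types, against 10% of those 2247 genes and 12% of all 2407 genes tested. mt-Cytb, a subunit of complex III, stood at 3450 and 4999 CPM in the mutants, against 1480 and 2039 CPM in the wild types, with a log2 ratio of 1.36 (SE 0.35, edgeR adjusted p = 0.715). mt-Nd4l, a subunit of complex I, had 19 and 32 UMIs in the mutants, against 7 and 2 UMIs in the wild types, with a log2 ratio of 2.50 (SE 0.54, edgeR adjusted p = 0.700). mt-Co1, a subunit of complex IV, overlapped, at 4077 and 7306 CPM in the mutants, against 3024 and 5352 CPM in the wild types. None of the 11 passed the test, and 8 of the 10 had an unadjusted p under 0.05, against 57 of the 2247 genes. The mRNAs are parts of the same mitochondrial share of the same cells, so they do not count as separate results.

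The typical lymphocyte-led member showed little of this difference. The median share of mitochondrial UMIs in a lymphocyte-led member was 2.27% in mutant 1 and 1.90% in mutant 2, against 1.92% in wild type 1 and 1.89% in wild type 2, and the highest was 18.6% and 17.6% in the mutants, against 6.63% and 7.74% in the wild types. The difference of medians was 0.185 percentage points, and it was -0.0035 without mutant 1. Over all members the medians were 2.92% and 2.16% in mutants 1 and 2, against 1.93% and 2.36% in wild types 1 and 2, with overlap and a difference of -0.2 percentage points within set B. RNA of Paneth cells moved the same way: all 8 Paneth genes tested in the lymphocyte-led members had both mutants above both wild types, with a median log2 ratio of 1.22. Among all 2407 genes tested there, 12% had both mutants above both wild types. The sum of the 9 Paneth genes stood at 11338 and 11355 CPM in the mutants, against 4704 and 6159 CPM in the wild types. In the other barcodes this sum was also higher in the mutant of each set, with overlap between the groups. It was 41798 and 86846 CPM there in mutants 1 and 2, against 25143 and 66887 CPM in wild types 1 and 2. The 16 epithelial genes summed to 2944 and 1416 CPM in the mutants, against 1673 and 2400 CPM in the wild types, with overlap. These 16 genes were used to choose the lymphocyte-led members, so their level there is limited by that choice. The other barcodes had 55928 and 51625 CPM of mitochondrial mRNAs in the mutants, against 48330 and 54727 CPM in the wild types, also with overlap. The part of this epithelial RNA in the mitochondrial difference was not tested.

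**Figure D5:**
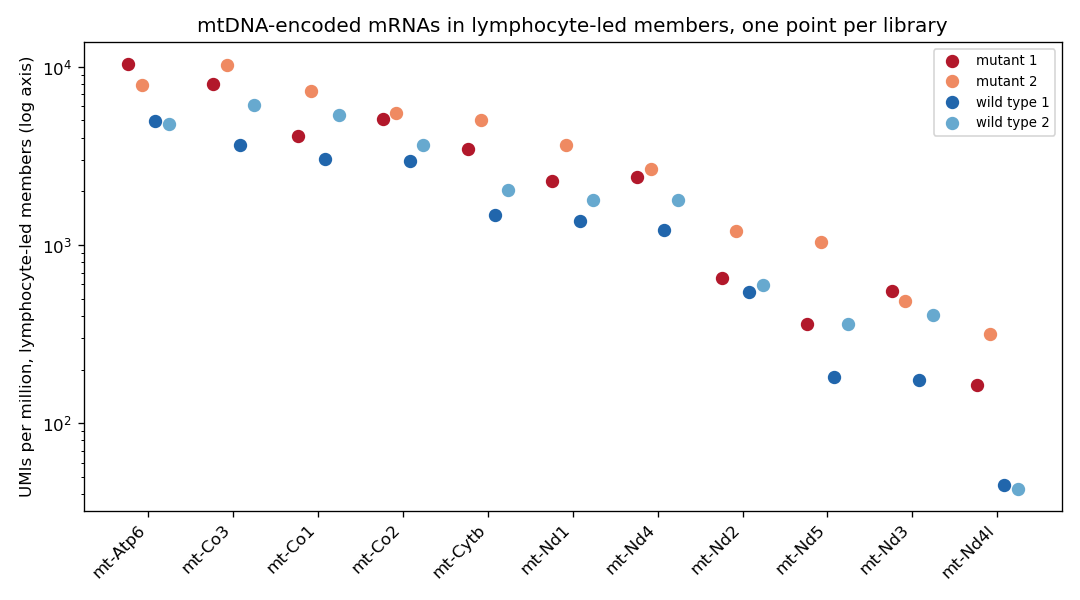
CPM (log axis) of the 11 mitochondrially encoded mRNAs tested, in the summed lymphocyte-led members, with 1 point for each library. Both mutants lie above both wild types for 9 genes, among them mt-Nd4l, which rests on 7 and 2 UMIs in the wild types; mt-Co1 and mt-Nd5 overlap.

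Across all genes no difference was called, and the largest ratios towards the mutants were of epithelial genes. In the summed members the edgeR quasi-likelihood test called 0 of 3944 genes (0%) between mutants and wild types, 473 genes had an unadjusted p under 0.05, and DESeq2 called 12, all higher in mutants. Left out in turn, mutant 1 gave 33 calls, mutant 2 gave 53, wild type 1 gave 78 and wild type 2 gave 411. Both mutants lay above both wild types for 25.1% of the genes tested and below them for 17.2%. Of the 16 epithelial genes, 15 reached the filter's level in a library of each genotype, and 12 of these lay above and 0 below, against 21.3% above among the 3548 genes that did so. The Paneth, goblet and stem cell lists had negative medians, but the sets had opposite signs in each. All 9 Paneth genes tested had a negative log2 ratio, with a median of -1.67 and medians of 3.38 within set A and -3.90 within set B. Of 7 goblet genes 6 were negative, with a median of -0.51 and medians of -1.8 within set A and 1.6 within set B. With the set as a replicate block, 4 of the 7 were negative, with a median of -0.05. All 3 stem cell genes were negative, with a median of -1.28 and medians of 2.8 within set A and -3.4 within set B. The genes with the largest ratios in both sets were enterocyte and epithelial defence genes. The antimicrobial lectin gene Reg3b stood at 6402 and 10420 CPM of all members in mutants 1 and 2, against 670 and 156 CPM in wild types 1 and 2, with a log2 ratio of 4.38 (SE 0.83, edgeR adjusted p = 0.175). The brush border gene Sis (sucrase-isomaltase) had 383 and 81 UMIs (823 and 393 CPM) in the mutants, against 7 and 4 UMIs (37.5 and 31.2 CPM) in the wild types, with a log2 ratio of 4.11 (SE 0.63, edgeR adjusted p = 0.175). Spink1, a trypsin inhibitor gene, and the brush border peptidase genes Mep1b and Enpep had log2 ratios of 3.77, 3.93 and 3.15, with the same adjusted p. Sis, Spink1, Mep1b and Enpep passed the filter on low values through the mutants alone, so their ratios rest on 1 to 7 UMIs in a wild type library. These values stand beside 19 and 7 epithelium-led members in mutants 1 and 2, against 1 and 2 in wild types 1 and 2, and the part of those members in the differences was not tested. In the lymphocyte-led members Reg3b was at 678 and 713 CPM in the mutants, against 769 and 127 CPM in the wild types, with overlap. Sis had 21 and 22 UMIs there in the mutants, against 5 and 4 UMIs in the wild types, with a log2 ratio of 2.17 (edgeR unadjusted p = 0.00146, adjusted p = 0.700), and again passed the filter through the mutants alone.

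In the other direction no gene passed, and the 5 with the largest ratios in both sets were Slc28a2, a nucleoside transporter gene, with a log2 ratio of -2.01, Nt5e, which encodes the ecto-5'-nucleotidase CD73, with -1.83, the chemokine gene Ccl6 with -1.70, the noncoding Lncpint with -1.48 and Cblb, a ubiquitin ligase gene that restrains T cell activation, with -1.39. Their edgeR adjusted p ran from 0.300 to 0.381. Slc28a2 stood at 34.4 and 141 CPM of all members in mutants 1 and 2, against 252 and 359 CPM in wild types 1 and 2. In the lymphocyte-led members it kept the direction, at 103 and 277 CPM in the mutants, against 304 and 935 CPM in the wild types, with a log2 ratio of -1.52 (SE 0.59, edgeR adjusted p = 0.998). Nt5e also had both mutants below both wild types there, and Cblb and Lncpint overlapped.

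Among lymphocyte genes, the lymphocyte-led members showed no called difference: 0 of 2407 genes passed (0%), with 82 at an unadjusted p under 0.05, and both mutants lay below both wild types for 18.4%. Of 24 tested genes of the 25-gene lymphocyte list, 8 had a positive and 16 a negative log2 ratio, with a median of -0.05. This list, which includes Ccl5, Trac and Trdc, was used to choose the lymphocyte-led members, so its level there is shaped by that choice. Over all members 22 of the 24 were negative, with a median of -0.85 and medians of -1.79 within set A and 0.45 within set B. Of 6 granule genes tested outside the rule, all had a positive ratio, with a median of 0.18, and for 1 both mutants lay above both wild types, near the 12% of all genes tested. With the set as a replicate block, 5 of the 6 were positive. Of 11 receptor signalling genes tested, 10 had a negative ratio, with a median of -0.27, and for 1 both mutants lay below both wild types. Gzma had a ratio of 0.01 (SE 0.32) and Gzmb of 0.73 (SE 0.37). Both are genes of the rule, so these ratios are a description with no test. Ikzf2 had a ratio of -0.21 (SE 0.31) and Ccl5 of -0.02 (SE 0.30), each with an edgeR adjusted p of 0.998. None of the 18 genes of the integrated stress response list was abundant enough in the lymphocyte-led members to be tested, and of 16 interferon genes 3 were tested, all with positive ratios and a median of 0.57.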

How the data were processed

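The deposited files hold raw UMI counts for each gene in each barcode, which the authors made with Cell Ranger 7.0.0 or 7.1.0 per the file headers, on mm10 per the submitters' processing notes. How introns and cells were handled there is not stated. Of 32285 features, rows with a shared symbol were summed. Barcodes were filtered as stated in the report, with no doublet removal. Scrublet in scanpy 1.11.5 marked doublets, at 0.8% per 1000 barcodes in each library. UMIs were summed per library and tested with edgeR 4.0.16 (quasi-likelihood, TMM, filterByExpr, Benjamini-Hochberg adjustment), with DESeq2 1.42.0 as an alternative. Members' sums held 465203, 206240, 186423 and 128173 UMIs in mutant 1, mutant 2, wild type 1 and wild type 2. Intervals and floors cover counting error only. On simulated counts for the genotype comparison (3944 genes), 55 of 100 genes with a 4-fold change and 98 of 100 with a 16-fold change were recovered, beside 6 wrong calls. For the receptor classes (671 genes) these were 79 and 97 of 100, beside 4 wrong calls. The simulation gave all genes 1 common dispersion and all libraries the same gene proportions, unlike the real members. It can therefore overstate recovery, and 0 calls do not exclude changes of these sizes. In the real genotype comparison Reg3b and Sis had log2 ratios of 4.4 and 4.1 and were not called (edgeR adjusted p = 0.175 for each). Members, gene lists and tests were chosen with earlier results of these data known. Genotype genes are named when called, or filled to 5 per direction by the smaller within-set ratio at a mean of at least 100 CPM. Some genes of the lists are not reported here.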

Additional observations from a re-analysis of the deposited data

Results flagged for a closer look

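The share of members among kept barcodes differed between mutant and wild type in opposite directions in the 2 sets, by -0.143 percentage points in set A and by 0.314 in set B. With 1 library per genotype and set, this difference between sets was not tested. Outside the filters, 9 more barcodes had at least 3 of the rule genes, 4 in mutant 1 and 4 in mutant 2, against 1 in wild type 1 and 0 in wild type 2. Of these, 4 in mutant 1 and 3 in mutant 2 had under 1000 UMIs, and 1 in mutant 2 and 1 in wild type 1 had 30% or more mitochondrial UMIs.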

How the results depend on the processing

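With 2 libraries per genotype, the p of a permutation test cannot fall below 0.333. A library held as few as 15 members. Gene tests detect large changes at best, and not all of those. The gamma-delta share and the mitochondrial share kept their direction under every alternative tried, except for medians over cells. The difference of median mitochondrial shares was -0.0035 for lymphocyte-led members without mutant 1, and over all members it was 0.392, with -0.2 within set B. The gamma-delta difference ran from -46.9 to -27.0 percentage points with 1 library left out and was -16.8 with Trbc1 and Trbc2 added to the alpha-beta definition. The share of members ran from -0.242 to 0.413 percentage points with 1 library left out and was -0.0142 with lymphocyte-led members only. Counts of genotype genes ran from 33 to 411 with 1 library left out, against 0 with all, and were 134 with no filter and 12 with DESeq2. With the set as a replicate block the count was 0 (277 genes at an unadjusted p under 0.05), and 0 in lymphocyte-led members (105 at an unadjusted p under 0.05). Outside the receptor and rule genes, counts between receptor classes ran from 0 to 1 with 1 library left out and were 1 with no filter (Clps). That count was 229 with Trbc1 and Trbc2 in the alpha-beta definition, where the gamma-delta class held 4 members in mutant 1 and 1 in mutant 2, against 5 in wild type 1 and 1 in wild type 2. Without a library block it was 0. Log2 ratios of single genes changed sign under at least 1 alternative for 9 of 35 genes followed by genotype over all members, none of them called. These were mt-Co1 (-0.0042 without wild type 1, up to 0.95), Cd3g (-0.72 to 0.34), Fcer1g (-1.28 to 0.51), Gzma (-1.33 to 0.11), Gzmb (-0.37 to 0.88), Rgs1 (-0.83 to 0.70), Trac (-0.26 to 0.89), Tyrobp (-2.73 to 0.59) and Xcl1 (-1.49 to 0.58). Between classes 21 of 26 changed sign, none of them called. Among those named in the report, Cd8a ran from -0.31 to 0.32 with 1 library left out and was -0.26 without doublet calls, -0.18 in lymphocyte-led members and -0.40 with no filter. Ccl5 ran from -0.20 to 0.55 and was -0.062 with no filter, and Klrd1 ran from -0.31 to 0.86. The medians of the mitochondrial share, the limits of 500 UMIs and 250 genes, the class of any member with Trdc, the block within lymphocyte-led members and the counts over genes that reached the filter level in both genotypes were added after the data were seen.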
